A study of Arabidopsis thaliana with 12 samples.

Results

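The 10 genes described here, out of 22337 genes with a read in the series, encode enzymes that remove reactive oxygen species in Arabidopsis thaliana seedlings. They were taken by gene ID: the catalase genes CAT1 (AT1G20630), CAT2 (AT4G35090) and CAT3 (AT1G20620), the ascorbate peroxidase gene APX1 (AT1G07890), the superoxide dismutase genes CSD1 (AT1G08830), CSD2 (AT2G28190) and FSD1 (AT4G25100), and the peroxiredoxin genes 2-Cys PrxA (AT3G11630), 2-Cys PrxB (AT5G06290) and PRXQ (AT3G26060). All 10 had reads, and all 10 had at least 1 tagged read. Superoxide dismutases turn superoxide into hydrogen peroxide, which catalases, ascorbate peroxidases and peroxiredoxins then break down. Catalases work mainly in peroxisomes, where photorespiration produces hydrogen peroxide in green leaves, APX1 in the cytosol, and the 3 peroxiredoxins in the chloroplast.

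The RNA came from untreated Col-0 seedlings 12 days old. Some transcripts carry NAD+ at the 5′ end in place of the usual cap. A reaction with adenosine diphosphate ribosylcyclase (ADPRC) was a step in the attachment of a synthetic tag RNA to such molecules. Direct RNA sequencing on a Nanopore instrument followed, in which the RNA itself is read. The 12 libraries comprised poly(A) RNA enriched for tagged molecules with ADPRC (3) and without it (3), unenriched poly(A) RNA with ADPRC (3) and without it (1), and enriched total RNA with and without ADPRC (1 each). Reactions without ADPRC are the background of the tagging step, and no label ties a replicate to its own culture, so the spread that p-values rest on may be technical.

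A tagged share below is the number of tagged reads of a gene as a percentage of all its reads in a library. Levels are in CPM, reads per 1000000 reads of the library. Replicates 1, 2 and 3 held 1175516, 1220520 and 1233999 reads in the enriched group with ADPRC, of which 23.9%, 20.9% and 14.1% were tagged. The other poly(A) libraries held 378322 to 948433 reads, with 0.546% to 0.743% tagged in the unenriched group with ADPRC, 0.132% to 0.224% in the enriched group without it and 9 tagged reads in the lone unenriched control. Markers of green shoot and of root were both present in unenriched libraries with ADPRC, from RBCS1A at 17553 ± 1761 CPM to the root gene TIP2;3 at 44.1 ± 8.90 CPM (SD, n = 3). Reads of a gene that overlaps another one cannot be assigned with certainty. CAT2, CSD1 and 2-Cys PrxA overlap AT4G35080, AT1G08840 and AT3G11620 in the TAIR10.1 annotation, and in each enriched library with ADPRC those 3 genes had at most 36, 1 and 10 reads. The close copies among the catalases and the 2-Cys peroxiredoxins carry the same uncertainty.

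Tagged RNA was an uneven part of the transcripts of these genes. Summed over the 10 genes, 14.2%, 16.7% and 8.51% of reads were tagged in enriched replicates 1, 2 and 3 with ADPRC, below the share of the whole library in each. The shares of the catalase transcripts CAT2, at 5.69% ± 2.46, and CAT3, at 8.03% ± 3.59 (SD, n = 3), lay below the library in each of the 3 libraries. So did those of CAT1, APX1, FSD1 and 2-Cys PrxB. CSD1, at 38.3% ± 7.97, and PRXQ, at 24.7% ± 5.72, lay above the library in each. How many of all genes lay below or above their library in every replicate was not counted. The median gene in the test described below also lay under its library. The median over the 1391 genes at 100 CPM or more was 18.5%, with quartiles of 11.7% and 25.5%. Transcript length did not enter these shares. The tag lies at the 5′ end while direct RNA reads start at the 3′ end, and the part that incomplete reads have in these shares was not tested.

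**Figure D1:**
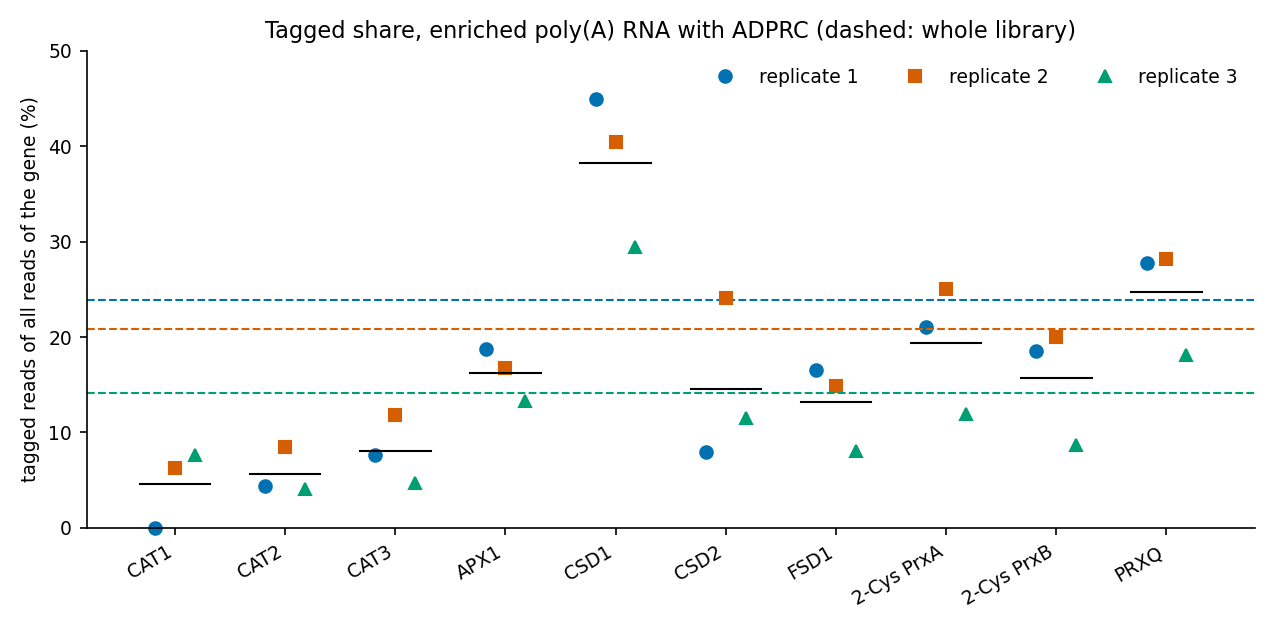
Tagged share of each of the 10 genes (tagged reads as a percentage of all reads of the gene) in the 3 enriched poly(A) libraries with ADPRC. Symbols are replicates, black bars their mean, and dashed lines the share of the whole library in the colour of its replicate (23.9%, 20.9% and 14.1%). CAT1, CAT2, CAT3, APX1, FSD1 and 2-Cys PrxB lie below and CSD1 and PRXQ above the line of their own library in every replicate. How many of all genes do so was not counted.

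CAT2, the main leaf catalase, had 1375, 1103 and 1513 reads in enriched replicates 1, 2 and 3 with ADPRC, of which 61, 94 and 62 were tagged. Its tagged share was therefore 4.44%, 8.52% and 4.10%. Each of these values is less than 10%, while the libraries as a whole held 14.1% or more. Without enrichment 1, 2 and 2 of its 905, 1265 and 1194 reads were tagged, a share of 0.145% ± 0.0306 (SD, n = 3). In the enriched libraries without ADPRC 4 of 2392 CAT2 reads were tagged, 0.167% (95% Wilson interval 0.0650% to 0.429%), and in the unenriched control 0 of 970, which allows a share of up to 0.309%. The pooled unenriched share with ADPRC, 0.149% (0.0635% to 0.347%), lies below that upper limit. The CAT2 reads of the control are therefore too few to tell tagging of CAT2 from background in unenriched RNA. Over all genes, 9 of the 434742 reads of that control were tagged, 0.00207%.

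CAT3, a second abundant catalase gene, had 1237, 1404 and 1175 reads in the enriched libraries with ADPRC, with 94, 166 and 55 of them tagged. Its share was 7.60%, 11.8% and 4.68%, again below the library each time. CAT3 exceeded CAT2 in 3 of 3 enriched libraries, by 2.35 ± 1.53 percentage points (SD, n = 3), with differences from 0.583 to 3.30 points. With 3 pairs an exact test cannot go below p = 0.25, and none was made for pairs of genes. Before enrichment 1 read was tagged in each library, 0.130% ± 0.0142. CAT1, which in Arabidopsis is the least abundant of the catalases in leaves, had 6, 32 and 39 reads in enriched libraries with ADPRC and 0, 2 and 3 tagged ones, 6.49% when pooled (2.81% to 14.3%). None of its 27 unenriched reads was tagged, which allows up to 11.1%.

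APX1, the cytosolic ascorbate peroxidase, had 1114, 901 and 909 reads with 209, 151 and 121 tagged in enriched libraries with ADPRC. Its share of 18.8%, 16.8% and 13.3% (16.3% ± 2.76) lay slightly under that of the library in each replicate. Unenriched libraries had 1, 4 and 1 tagged reads among 366, 546 and 523, or 0.399% ± 0.292. Only 1 of 1695 reads was tagged after enrichment without ADPRC.

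The 3 superoxide dismutase genes differed widely. CSD1, the cytosolic copper/zinc enzyme, was read 49, 136 and 34 times in enriched libraries with ADPRC, and 22, 55 and 10 of these reads carried the tag. Shares of 44.9%, 40.4% and 29.4% put it highest of the 10 genes in each library. CSD2, the chloroplast copper/zinc enzyme, had 2, 19 and 3 tagged among 25, 79 and 26 reads, a share of 14.5% ± 8.43 that ranged from 8.00% to 24.1%. CSD1 exceeded CSD2 by 16.4 to 36.9 points in the 3 libraries. FSD1, an iron superoxide dismutase, had by far more reads, 2177, 1443 and 1812, with 361, 215 and 147 tagged. Its share of 16.6%, 14.9% and 8.11% was below the library in each replicate and 21.3 to 28.3 points below CSD1. Before enrichment FSD1 had 1, 4 and 5 tagged reads among 1200, 1727 and 1855, 0.195% ± 0.0984, and the unenriched control had 0 of 1488, which allows up to 0.202%. Unenriched CSD1 and CSD2 were covered by 31 and 24 reads in all, of which 1 and 0 were tagged, too few to place their shares.

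2-Cys PrxA and 2-Cys PrxB, close copies that reduce peroxides in the chloroplast stroma with 2 cysteines, did not overlap CSD1 in share. 2-Cys PrxA had 127, 252 and 97 tagged among 604, 1007 and 812 reads in enriched libraries with ADPRC, 21.0%, 25.02% and 11.9%. For 2-Cys PrxB it was 28, 55 and 21 among 151, 275 and 241 reads, 18.5%, 20% and 8.71%. The A copy was higher in 3 of 3 libraries, by 2.48 to 5.02 points, and both had their lowest share in replicate 3, as the library had. PRXQ, a thylakoid-associated peroxiredoxin, had 107, 135 and 74 tagged among 385, 479 and 409 reads. Its share of 27.8%, 28.2% and 18.1% exceeded 2-Cys PrxA in each library, by 3.16 to 6.77 points. In unenriched libraries 2-Cys PrxA had 1, 2 and 3 tagged reads among 119, 267 and 250 (0.930% ± 0.238), above the share of the library each time. PRXQ had 0, 0 and 3 tagged of 46, 104 and 114, and 2-Cys PrxB 1, 0 and 0 of 35, 57 and 55.

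Whether a gene carried the tag more or less often than its library was tested across all genes at a mean of 20 CPM or more. The measure is the relative share, log2 of the share of the gene over the share of the library, with a pseudocount of 0.819 CPM of tagged reads and its counterpart in all reads, and limma tested its mean over 3 libraries against 0. After enrichment CAT2 was lower, with a relative share of -1.82 (SE 0.39, limma adjusted p = 0.00445), as was CAT3 with -1.35 (SE 0.34, adjusted p = 0.01003). CSD1 was higher with 0.90 (SE 0.12, adjusted p = 0.000373). These 3 calls held without any one library and in edgeR on whole reads. CAT1 was also lower (-1.12, SE 0.31, adjusted p = 0.0147), on 5 tagged reads, and lost the call without replicate 2 (adjusted p = 0.0635). FSD1 at -0.60 (adjusted p = 0.0606) and PRXQ at 0.33 (0.0905) did not pass in limma and did in edgeR (adjusted p = 2.25e-05 and 0.0276). APX1, CSD2, 2-Cys PrxA and 2-Cys PrxB passed in neither, with relative shares of -0.25, -0.42, -0.05 and -0.36. Of the 10 genes 3 were thus lower and 1 higher in limma, where 37.0% of the 5494 genes tested were lower and 14.0% higher, so being lower or higher than the library was common among genes in general. EdgeR called 4 lower and 2 higher, beside 40.1% and 13.9%. That split depends on the reference: with each library centred on its median gene, limma called 1533 genes higher and 1307 lower, and of the 10 genes CSD1 and PRXQ higher (PRXQ 0.72, adjusted p = 0.0033) and CAT2 and CAT3 lower, without CAT1 (adjusted p = 0.0672). The median relative share of the 10 genes was -0.39, against -0.40 over all genes tested. Percentiles by relative share among all genes tested were 14.3 (CAT2), 22.6 (CAT3), 27.8 (CAT1), 42.6 (FSD1) and 49.4 (CSD2). They were 51.8 for 2-Cys PrxB, 56.5 for APX1, 65.1 for 2-Cys PrxA, 82.3 for PRXQ and 97.3 for CSD1.

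**Figure D2:**
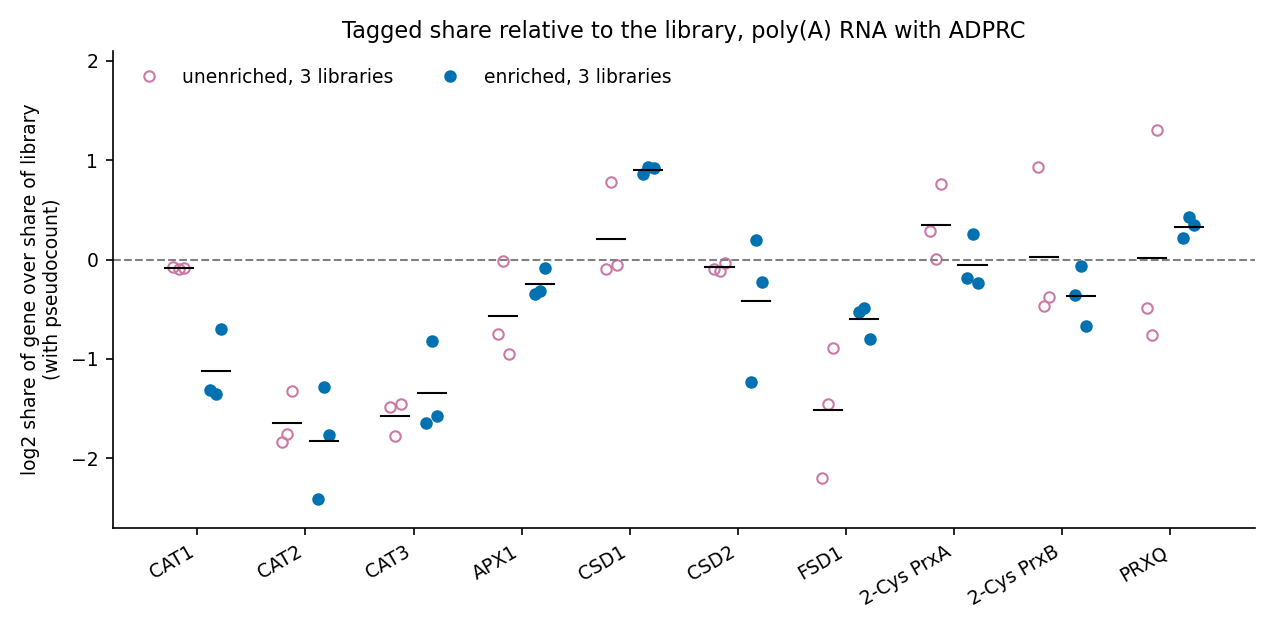
Relative tagged share of each gene, log2 of its share over that of the library with a pseudocount, in poly(A) libraries with ADPRC. Open points are the 3 unenriched and filled points the 3 enriched libraries, black bars are means, and the dashed line marks the share of the library. CAT1, CAT2, CAT3, APX1 and FSD1 lie below the line in all 6 libraries, CAT1 without a tagged read in the unenriched ones. CSD1 and PRXQ lie above it in all 3 enriched ones.

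CAT2, CAT3 and FSD1 also stood low before enrichment. With a pseudocount of 1.79 CPM, CAT2 had a relative share of -1.64 (SE 0.22, limma adjusted p = 0.0218), CAT3 of -1.57 (SE 0.16, adjusted p = 0.0157) and FSD1 of -1.51 (SE 0.32, adjusted p = 0.0403) in unenriched libraries with ADPRC. In edgeR CAT2, CAT3 and FSD1 had adjusted p = 0.00608, 0.0450 and 0.00406. Limma called 1.61% of 5275 genes higher and 53.4% lower, but 2780 of those 2818 had no tagged read in any of the 3 libraries, and such genes show almost no spread with a pseudocount. By edgeR 0.626% of these genes were higher and 0.550% lower, among the latter 3 of the 7 tested here, which are also the genes with the most unenriched reads of the 10 (2328 to 4782). Each limma call rested on all 3 libraries for CAT2 and FSD1, which gave adjusted p from 0.0652 to 0.122 with 1 library left out. CAT3 lost its call without replicate 1 (0.106) or 3 (0.0648), and APX1 passed without replicate 2 (0.0425). APX1, 2-Cys PrxA, 2-Cys PrxB and PRXQ did not pass, at -0.57, 0.35, 0.03 and 0.02. CAT1, CSD1 and CSD2 lay under the minimum of 20 CPM.

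A change of the relative share with enrichment was not called for any of the 9 genes tested (limma, 1 at unadjusted p under 0.05; edgeR 0 called, 1 at unadjusted p under 0.05). In all genes limma called 4.17% higher and 20.1% lower after enrichment (226 and 1089 genes, or 371 and 893 with centring on the median gene). EdgeR called 0 of all 5417 genes here, so its lack of calls is no result about the 9 genes. FSD1 moved by 1.00 on the log2 scale (SE 0.37, limma adjusted p = 0.0943) and CAT2 by -0.05 (SE 0.33, adjusted p = 0.931). The pseudocount weighs more on the unenriched libraries, with their few tagged reads, where it pulls the relative share of a gene further toward 0. Leaving out unenriched replicate 2 gave a call for CSD1 (adjusted p = 0.0324), and leaving out unenriched replicate 3 one for PRXQ (0.0324).

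Tagged reads of the 10 genes were nearly absent without the enzyme. In enriched libraries 2-Cys PrxA had 108, 206 and 78.6 tagged CPM with ADPRC and no tagged read without it, a mean of 131 ± 67.0 CPM (SD, n = 3) that is at least 81.2-fold higher than the control libraries allow, with 3 reads over all 3 of them as the floor. APX1 had 178, 124 and 98.1 CPM with the enzyme and 1 tagged read, 1.05 CPM, in 1 control library (log2 fold change 6.74, SE 0.40, limma adjusted p = 3.18e-05). CAT2 had 51.9, 77.0 and 50.2 tagged CPM against 0, 3.84 and 2.11 (4.63, SE 0.62, adjusted p = 0.000662), and CAT3 had 80.0, 136 and 44.6 against 0, 5.76 and 1.05 (5.09, SE 0.80, adjusted p = 0.00122). FSD1 was the only one of the 10 with a tagged read in each enriched control library, 1 in replicates 1 and 2 and 3 in replicate 3. In none of the 9 genes tested did the groups overlap, and the share of all genes without overlap was not counted. All 9 were called higher and CAT1 was not tested, but limma called 96.7% of 7634 genes higher, and a gene passed the filter nearly always through its tagged reads with ADPRC. Neither the calls nor the lack of overlap is therefore a result about these genes, and the p-values of single genes are no support either. The same holds for tagged RNA with against without enrichment, where 9 of 9 were called higher beside 95.7% of all genes. In that comparison PRXQ rose by 5.31 (SE 0.73, limma adjusted p = 0.000887) and CSD2 by 2.20 (SE 0.67, adjusted p = 0.0193) on the log2 scale. PRXQ had tagged reads in 1 of the 3 unenriched libraries and CSD2 in none. Both genes passed the filter through their enriched libraries, so these p-values are no support for a rise. CSD2 had no tagged read in either comparison group, and both its calls were lost in edgeR (adjusted p = 0.0666 without ADPRC as the comparison and 0.0816 for enrichment) and with 4 times the pseudocount (0.0517 and 0.0609). Both comparisons also depended on scaling: over all genes, centring turned 7384 higher and 0 lower into 36 and 7218 for ADPRC, and 7297 and 0 into 17 and 6417 for enrichment, while quantile normalization gave 1535 and 1466, and 667 and 1071.

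**Figure D3:**
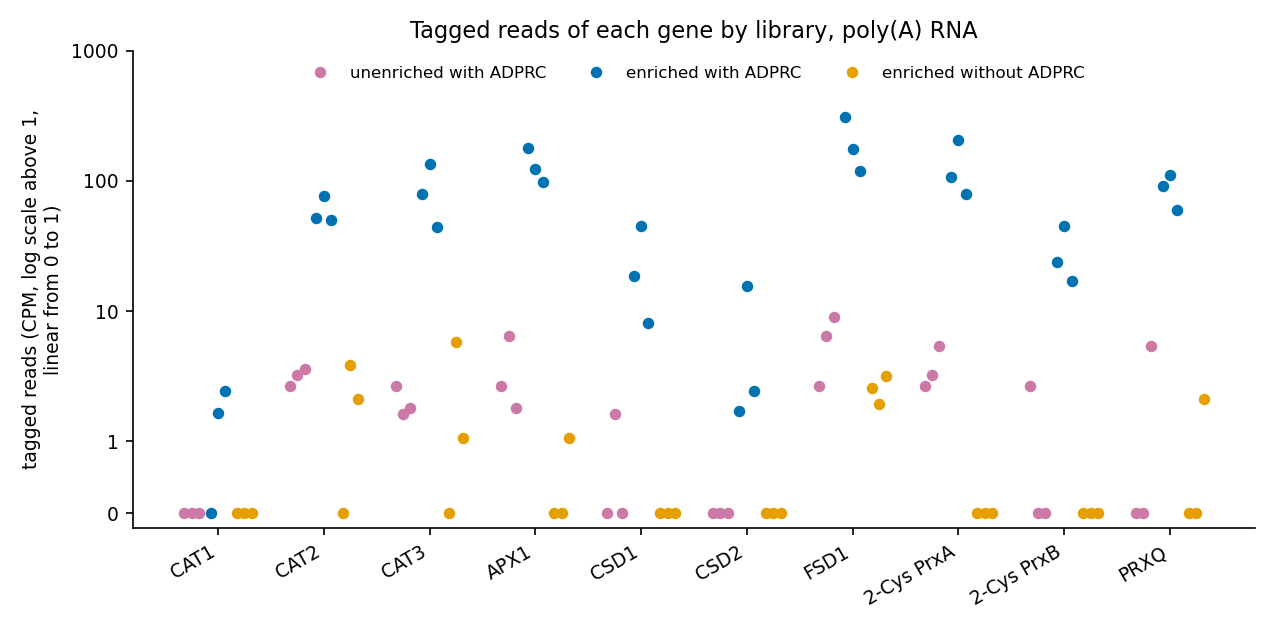
Tagged reads of each gene in CPM, per library, in unenriched and enriched poly(A) RNA with ADPRC and in enriched poly(A) RNA without it (3 libraries each). The axis is logarithmic above 1 and linear from 0 to 1. Apart from CAT1, which has no tagged read in enriched replicate 1, the enriched libraries with ADPRC lie above both other groups for every gene.

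Unenriched RNA with and without ADPRC could be compared for 5 of the 10 genes, against a control in which none of them had a tagged read. FSD1, APX1, 2-Cys PrxA, CAT2 and CAT3 had 6.01 ± 3.17, 3.63 ± 2.49, 3.74 ± 1.43, 3.15 ± 0.471 and 2.02 ± 0.551 tagged CPM with ADPRC (SD, n = 3), and 1 read in the control would be 2.30 CPM. The filter kept genes that had tagged reads in the 3 libraries with ADPRC, so a higher level was set before the test. Limma called all 5, with 99.4% of 326 genes (46 higher and 39 lower with quantile normalization), and edgeR and DESeq2 called 0 of them (1 and 0 at unadjusted p under 0.05).

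All reads of these genes, tagged and untagged together, shifted with enrichment in both directions. FSD1 had 3172, 2789 and 3315 CPM in unenriched libraries with ADPRC and 1852, 1182 and 1468 CPM in enriched ones (log2 fold change -1.06, SE 0.16, limma adjusted p = 0.00411). CAT2 fell from 2392, 2043 and 2134 CPM to 1170, 904 and 1226 (-1.002, SE 0.14, adjusted p = 0.00293). The lowest unenriched value lies above the highest enriched one for both genes. PRXQ rose from 122, 168 and 204 CPM to 328, 392 and 331 (1.11, SE 0.19, adjusted p = 0.00680), 2-Cys PrxB from 92.5, 92.1 and 98.3 to 128, 225 and 195 (0.91, SE 0.20, adjusted p = 0.0265), and 2-Cys PrxA from 315, 431 and 447 to 514, 825 and 658 (0.73, SE 0.19, adjusted p = 0.0480). These groups do not overlap either. The share of all genes without overlap was not counted, so the separation adds nothing to the calls. Of the 10 genes 3 were higher and 2 lower, beside 2.99% and 1.96% of 18831 genes tested. Many of those genes had few reads. Among genes at a mean of 10 CPM or more, 876 of 8684 were higher and 593 lower, and 4 and 3 of the 10. The median of all genes moved by 0.20 in this comparison and that of the 10 genes by 0.35. CAT3 missed the threshold at -0.54 (SE 0.14, adjusted p = 0.0529) and passed it in edgeR (adjusted p = 0.0238) and DESeq2 (0.0104). CSD1 at 1.35 did not pass (adjusted p = 0.106) and did in edgeR (0.0345). CSD2 at 1.03 (0.251), APX1 at -0.21 (0.418) and CAT1 at -0.04 (0.975) did not pass.

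Only CAT2 kept its call without each library in turn. FSD1 lost it without enriched replicate 3 (adjusted p = 0.0651), PRXQ without any one enriched library (0.0634 to 0.0803), 2-Cys PrxB without any library but enriched replicate 1 (0.0740 to 0.162) and 2-Cys PrxA without any of the 6 (0.0710 to 0.242) and with median centring (0.0790). With untagged reads alone 3 of the 10 were again higher and 2 lower, beside 657 and 332 of 18640 genes tested.

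Enrichment without ADPRC gave levels of all reads near those with it. FSD1 had 2205, 1494 and 1977 CPM, CAT2 had 1564, 987 and 1337, and PRXQ had 262, 290 and 239 in the 3 enriched libraries without the enzyme. For FSD1 and CAT2 each of these lies below, and for PRXQ above, all 3 unenriched values with ADPRC and the lone unenriched control, which had 3423, 2231 and 177 CPM. In the same enriched libraries 2-Cys PrxA and 2-Cys PrxB also lay above all their unenriched values. For 2-Cys PrxA the margin was small, 456 CPM at the lowest against 447 CPM at the highest unenriched. Enriched libraries without ADPRC were not tested against unenriched ones. The share of all genes without overlap was not counted there either, so this separation is no result about these genes. Between enriched libraries with and without ADPRC limma called 0 of the 10 genes for all reads (1 at unadjusted p under 0.05; edgeR and DESeq2 0, with 2 and 1), beside 0.0731% of 19150 genes higher and 0.0418% lower. The replicate numbers pair these libraries, and with that block 151 genes were called higher and 62 lower, still with 0 of the 10 genes (4 at unadjusted p under 0.05). The log2 fold change of CAT2 was -0.22 with a 95% interval from -0.63 to 0.18, and that of PRXQ was 0.41, from 0.07 to 0.74 (adjusted p = 0.596).

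**Figure D4:**
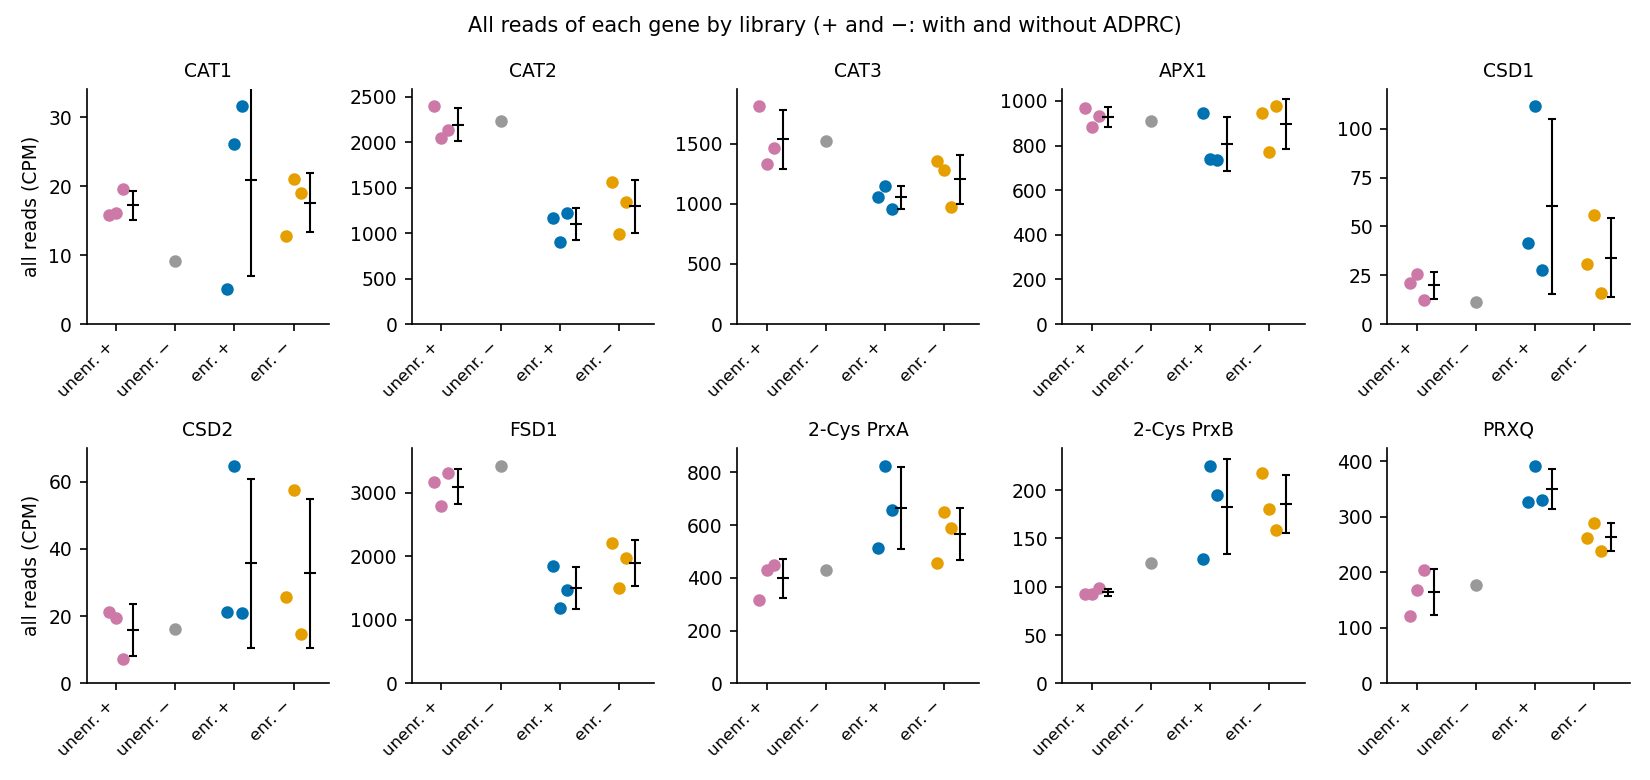
All reads of each gene in CPM, per library, for unenriched (unenr.) and enriched (enr.) poly(A) RNA with (+) and without (−) ADPRC. Points are libraries, and the bar with caps is the mean and SD of the 3 libraries of a group. FSD1 and CAT2 are lower and PRXQ, 2-Cys PrxA and 2-Cys PrxB are higher in both enriched groups than in both unenriched ones, with no overlap. The share of all genes without overlap was not counted.

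Other genes of the antioxidant system, a list of 38 of which 37 had reads, gave a mixed picture of the same kind. After enrichment 4 of 26 tested lay above the share of the library and 7 below (limma; median relative share 0.04), beside 14.0% and 37.0% of all genes tested. EdgeR called 6 above and 7 below, and limma with centring on the median gene 12 above and 3 below. Those above were CSD3 (another copper/zinc superoxide dismutase gene) at 0.76, PRXIIF (the mitochondrial peroxiredoxin) at 0.84, GPX2 at 0.73 and PRXIIC at 0.55. Below were both chloroplast ascorbate peroxidase genes SAPX (-1.61) and TAPX (-1.003), both glutathione reductase genes GR1 (-1.08) and GR2 (-1.56), the monodehydroascorbate reductase genes MDAR4 (-1.28) and MDAR6 (-1.37), and APX4 (-0.88). The 5 genes of the list with the highest level in unenriched libraries with ADPRC did not pass the test after enrichment. In enriched libraries GPX1, DHAR1, PRXIIB, MDAR1 and PRXIIE had shares of 24.6% ± 5.69, 20.6% ± 4.28, 19.96% ± 4.18, 15.1% ± 4.44 and 17.7% ± 3.37 (SD, n = 3), with adjusted p from 0.0913 to 0.875. Unenriched, limma called 0 of 27 genes of the list above their library and 11 below, beside 1.61% and 53.4% of all genes tested. None of these 11 had a tagged read in the unenriched libraries with ADPRC. EdgeR called 0, beside 0.626% of all genes above and 0.550% below. For all reads 3 of 36 were higher after enrichment, MDAR4 (0.98), PRXIIE (0.72) and APX4 (0.91), and PRXIIC was lower (-1.62). Of all 18831 genes tested there, 2.99% were higher and 1.96% lower.

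The genes most like CAT2 in relative share over the 6 poly(A) libraries with ADPRC, among 1359 other genes at 100 CPM or more, were RPT2 (AT2G30520), the myrosinase gene TGG1 (AT5G26000) and the ATP sulfurylase gene APS1 (AT3G22890). Their Euclidean distances were 0.63, 0.71 and 0.83, and their pooled shares after enrichment were 5.72%, 4.70% and 4.60%, against 5.44% for CAT2. For CSD1 the nearest were SEN1 (AT4G35770), the cytochrome c gene CYTC-1 (AT1G22840) and AT3G53730, at distances of 0.80, 0.82 and 0.83. Pooled shares were 28.1%, 35.7% and 30.5% there, against 39.7% for CSD1. CSD1 itself had 60.2 CPM in enriched and 19.8 CPM in unenriched libraries with ADPRC, under the level asked of the other genes. With 1 tagged read of 31 in the unenriched libraries, its distances rest in part on the pseudocount.

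In total RNA the libraries were too small to place any share. With ADPRC 42 of 6479 reads came from the 10 genes, and 2 of these were tagged, 1 of APX1 and 1 of CSD2. Without ADPRC there were 6 reads of 1237, none of them tagged.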

How the data were processed

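The deposited tables hold a value per gene and library for tagged reads and for all reads, named TPM per the file headers. In both the values behave as CPM, with all reads of a library as the denominator: the 38774 deposited tagged values above 0, and the 177709 for all reads, were whole multiples of 1 read (100%, tolerance 0.01 reads), which gave back whole reads. One row named no gene (1 read) and was left out. Not given in the sources used here: base caller, aligner, genome build, strand handling and the rule for a tagged read. No sequences of these genes were used here.

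Levels were tested with limma 3.58.1 in R 4.3.3 on log2(CPM + pseudocount), with genes kept that had a value above 0 in 3 or more libraries. The pseudocount was the median of the smallest values above 0, from 0.953 to 2.04 CPM. Folds on this scale understate the change of low genes. Relative shares were tested in the same way (mean of 20 CPM or more). P-values were two-sided and Benjamini-Hochberg adjusted over all genes, with calls under 0.05. Alternatives were edgeR 4.0.16, DESeq2 1.42.0, other pseudocounts, filters and scalings, the replicate number as a block, and leaving out each library. The lone control library was assumed to vary like the replicated group. Scripts were checked on simulated data. Intervals are 95% Wilson intervals. These and floors (3 reads) cover counting error only. Every pair of replicates differed by more than sampling noise (chi-square per gene 1.20 to 4.76). Same-numbered enriched libraries with and without ADPRC deviated together (r = 0.248 to 0.331), and enriched and unenriched ones did not (0.00339 to 0.0370).

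The 10 genes, the list of other antioxidant genes and the tests were chosen with earlier results of these data known. The rule named all 10 genes, the 5 most abundant of the list and the 3 genes nearest to the ones with the highest and lowest share. Other list genes named were those that passed the test, chosen after their values were seen.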

Additional observations from a re-analysis of the deposited data

How the results depend on the processing

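The calls that held under every alternative run were those of CAT2, CAT3 and CSD1 for the tagged share after enrichment and of CAT2 for all reads with enrichment. Tagged levels depended on scaling. When each library was centred on its median gene, over genes with tagged reads in all libraries, limma called 4 of the 10 genes lower with ADPRC and 0 higher (CSD1 -1.97, CSD2 -3.90, CAT2 -1.75, 2-Cys PrxB -1.53, with CAT3 -1.29, PRXQ -0.45 and FSD1 -0.62 turned but not called). With enrichment it called 1 lower, CSD2 at -2.46, with CSD1 -1.002, CAT3 -0.021, 2-Cys PrxA -0.0033, CAT2 -0.88 and 2-Cys PrxB -0.72. Quantile normalization left 3 and 0 calls in these 2 comparisons, with CAT2 at -0.035 and -0.046. Such centring gives a direction relative to genes that are tagged everywhere, and for genes without a tagged read in one group it rests on the pseudocount.

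In unenriched RNA with against without ADPRC the median log2 fold change of the 5 genes was 1.39. It was 0.51 with the larger pseudocount, 4.03 in edgeR and 3.13 in DESeq2 (0.64, 4.24 and 3.44 over all genes tested). With 1 library left out it was 1.28 to 1.48. Quantile normalization gave CAT3 -0.53, APX1 -0.29, 2-Cys PrxA -0.20 and CAT2 -0.26. Centring gave APX1 -1.26, CAT3 -1.67, 2-Cys PrxA -1.18, FSD1 -0.76 and CAT2 -1.31. No gene of the 10 reached a mean of 10 CPM there, so that filter gave no value. For all reads with enrichment 1 to 3 of the 5 calls were left without 1 library. With median centring of all reads 2-Cys PrxA was lost. For unenriched shares, with 3 calls, 1 gene was called without a filter (CAT1, and none of the 3), 1 when centred on the median gene (CAT3), and 0 to 2 without 1 library, the 2 being CAT3 and APX1. That centring called 8 of all genes higher and 424 lower, against 85 and 2818. A change of share with enrichment was called for 1 gene with the larger pseudocount (CSD1), for 1 without a filter (CAT1), and for 0 or 1 without 1 library. Except where a setting tests fewer libraries, the cause was not tested.

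The replicate numbers pair enriched libraries with and without ADPRC, and the replicate block changed no call of the 10 genes there (9 for tagged and 0 for all reads). Enriched and unenriched libraries share only the number, and with the block 9 genes were called for tagged reads, 7 for all reads (CSD1 and CAT3 in addition) and 0 for a change of share. Of all genes the block called 7327 of 7623 higher for tagged reads with enrichment. For all reads it called 635 higher and 410 lower of 18831, and for a change of share 75 higher and 1036 lower of 5417. In unenriched libraries depth limits what can be said of CAT1, CSD1 and CSD2, with 24 to 31 reads each.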
